A study of Homo sapiens with 32 samples.

Results

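The response of the human lung cancer line H460a to 6 h of RO4929097 was measured on 8 arrays, which are 4 arrays of cells given the compound and 4 of cells given vehicle, out of 32 arrays in all. The arrays were taken by their labels, which give the line, the agent and the time. The comparison itself was chosen with earlier results of these data known. The labels spell the line H460a and the design text H460, a line that derives from a large cell carcinoma of the lung. RO4929097 is a small-molecule inhibitor of gamma-secretase, abbreviated GSI, and was used at 2 µM. The other arrays used here are H460a cells given GSI or vehicle for 24 h and A549 cells, a lung adenocarcinoma line, given GSI or vehicle for 6 h, again 4 arrays a group. All groups were plated sparsely and rested overnight before dosing, and no group was left without vehicle or compound. Whether the 4 arrays of a group are of separate cultures is not stated, and p-values reflect only how far these arrays differ, which can be technical.

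Gamma-secretase is a protease complex that cuts membrane proteins within the membrane. Its best known substrate is the Notch receptor, whose freed intracellular part joins the DNA-binding protein RBPJ in the nucleus and switches on genes such as HES1 and HEY1. The unfolded protein response is a separate programme, in which sensors in the membrane of the endoplasmic reticulum (ER) raise chaperones and the machinery that returns misfolded proteins to the cytosol for degradation.

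Levels are log2 of the deposited intensity of 1 probe set per gene, and differences are GSI minus vehicle on the log2 scale, ± the standard error (SE) from limma with n = 4 arrays a group. A gene was called higher or lower where its limma p-value, with Benjamini-Hochberg adjustment across 19775 genes, was below 0.05. The number of arrays limits the precision, with a median SE of 0.087. Because the RNA is from whole cultures, fewer cells that express a gene and less RNA per cell cannot be told apart. H460a expressed the keratins of simple epithelium, with KRT8 at 13.12, 13.23, 13.08 and 13.14 in GSI arrays and at 13.18, 13.02, 12.27 and 12.98 in vehicle arrays. The epithelial adhesion gene EPCAM was at 4.68 to 4.81 in GSI arrays and 4.54 to 5.03 in vehicle arrays, below the median log2 intensity of an array, 6.56 to 6.59 in GSI arrays and 6.56 to 6.62 in vehicle arrays. The leukocyte marker PTPRC lay between 4.94 and 5.39 over the GSI arrays and between 5.16 and 5.28 over the vehicle arrays.

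Vehicle array 3 stood apart from the other 7. The 3′ minus 5′ difference of the beta-actin control probe sets, which grows as transcripts are degraded or copied short, was 0.155 to 0.271 in the GSI arrays, 2.19 in vehicle array 3 and 0.218 to 0.290 in the other 3 vehicle arrays. The other 31 arrays of the series lay between 0.142 and 0.415. Vehicle array 3 was over 0.5 above the mean of the other vehicle arrays for 603 genes and over 0.5 below it for 768. Calls are therefore given with all arrays and without this one. Mean intensity was 603.8 to 611.5 in the GSI arrays and 594.8 to 601.8 in the vehicle arrays, and its part in the results was not tested beyond the scalings given with the alternatives.

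Few genes were called for GSI at 6 h in H460a, which does not give the number of transcripts that changed. With all arrays 19 genes were called, 0.0961% of those tested, of which 14 were higher (0.0708%) and 5 lower (0.0253%). Leaving out vehicle array 3 gave 20 (0.101%), of which 16 were higher (0.0809%) and 4 lower (0.0202%). Both analyses called 13 genes, 6 were called with all arrays only and 7 without vehicle array 3 only. At an unadjusted p below 0.05 there were 2201 genes with all arrays and 1848 without the array. The rises ranged from 0.32 to 0.86 with a median of 0.41, and the falls from -0.57 to -0.36. Only DNAJB9 and HERPUD1, both genes of the ER, were past the threshold with a difference of at least 0.58. All 19 genes had GSI arrays that did not overlap the vehicle arrays, a separation found for 4.34% of all genes upward and 2.39% downward. Against the 3 other vehicle arrays alone it was found for 9.59% upward and 5.87% downward.

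**Figure D1:**
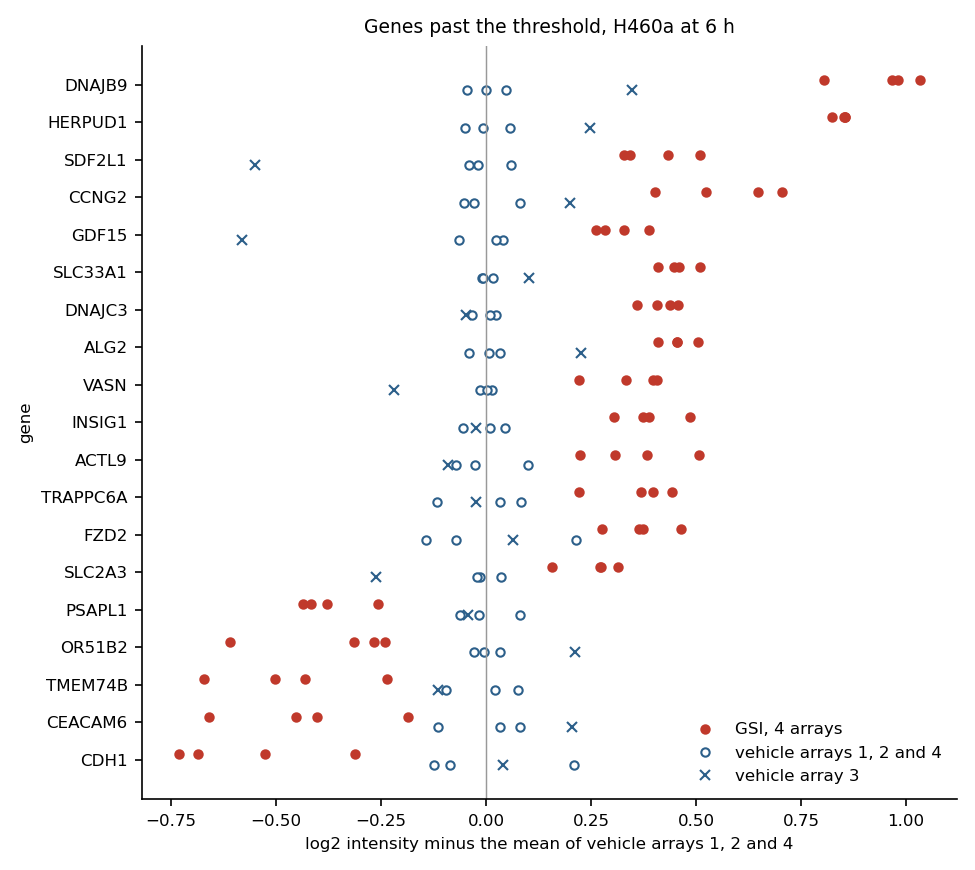
Log2 intensity in each array, set against the mean of vehicle arrays 1, 2 and 4, for the 19 genes past the threshold in H460a at 6 h. Filled points are the 4 GSI arrays, open points are vehicle arrays 1, 2 and 4, and crosses are vehicle array 3. DNAJB9 and HERPUD1 lie farthest to the right, and the crosses for SDF2L1 and GDF15 lie well to the left of the other vehicle arrays.

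DNAJB9 encodes an ER co-chaperone of the HSP40 family that works with the chaperone HSPA5. It was at 9.64, 9.81, 9.80 and 9.86 in the GSI arrays and at 8.78, 8.83, 9.18 and 8.88 in the vehicle arrays. The lowest GSI array lay above the highest vehicle array, which was array 3. DNAJB9 rose by 0.86 ± 0.090, a 1.81-fold rise (limma adjusted p = 7.1e-07), and by 0.95 without vehicle array 3 (adjusted p = 6.9e-08). Its other probe sets gave 0.77 and 1.25.

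HERPUD1 encodes a membrane protein of the ER that takes part in degrading misfolded proteins. It was at 11.79, 11.83, 11.83 and 11.82 in the GSI arrays and at 10.96, 10.92, 11.22 and 11.03 in the vehicle arrays. The GSI arrays were closely grouped and all above the vehicle arrays. HERPUD1 rose by 0.78 ± 0.065, a 1.72-fold rise (limma adjusted p = 3.4e-09), and by 0.85 without vehicle array 3 (adjusted p = 3.6e-10). Its second probe set, at 6.43 in GSI and 6.48 in vehicle arrays, gave -0.05.

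SDF2L1, a resident ER protein that acts with chaperones, was at 11.18, 11.35, 11.17 and 11.27 in the GSI arrays and at 10.90, 10.80, 10.29 and 10.82 in the vehicle arrays. Vehicle array 3 was the lowest, and the GSI arrays were above all 4 vehicle arrays. The rise was 0.54 ± 0.087 (limma adjusted p = 0.0028), and 0.40 without vehicle array 3 (adjusted p = 0.0054). DNAJC3, another ER co-chaperone, was at 10.81, 10.85, 10.89 and 10.91 in GSI arrays and at 10.47, 10.46, 10.40 and 10.41 in vehicle arrays. It rose by 0.43 ± 0.079 (limma adjusted p = 0.012) and by 0.42 without vehicle array 3 (adjusted p = 0.037). Its 3 other probe sets gave -0.0048, 0.085 and 0.088.

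Promoter windows are shown for the 3 ER genes with the largest called rises, for HSPA5, the main ER chaperone, and for HES1, the classical Notch target. They are RefSeq sequences from 250 bases before to 50 bases after the gene's start, on build GRCh38.p14, read 5′ to 3′ along the gene's strand. Capitals mark matches, on either strand, to the ER stress response element (CCAAT, any 9 bases, CCACG), the ER stress response element II (ATTGG, any 1 base, CCACG), the unfolded protein response element (TGACGTGG) or the RBPJ core (TGGGAA). Marking was for the ER stress response element II in HERPUD1 and SDF2L1, and for the ER stress response element in HSPA5. In DNAJB9 it was for all 4 motifs, and in HES1 for the RBPJ core only.
HERPUD1, chr16:56931892-56932191, plus strand: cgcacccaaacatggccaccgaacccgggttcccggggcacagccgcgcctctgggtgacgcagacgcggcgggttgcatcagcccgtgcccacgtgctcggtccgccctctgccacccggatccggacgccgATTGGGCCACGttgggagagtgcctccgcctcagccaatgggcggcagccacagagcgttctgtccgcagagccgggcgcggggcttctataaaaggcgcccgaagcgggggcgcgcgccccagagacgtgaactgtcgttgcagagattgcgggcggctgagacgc
SDF2L1, chr22:21642052-21642351, plus strand: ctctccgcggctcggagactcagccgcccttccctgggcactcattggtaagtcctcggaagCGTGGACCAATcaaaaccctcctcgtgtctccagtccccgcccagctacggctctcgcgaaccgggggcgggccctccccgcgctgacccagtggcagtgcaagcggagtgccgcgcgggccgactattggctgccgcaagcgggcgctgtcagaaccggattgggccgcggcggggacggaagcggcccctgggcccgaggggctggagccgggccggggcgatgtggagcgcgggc
DNAJB9, chr7:108569624-108569923, plus strand: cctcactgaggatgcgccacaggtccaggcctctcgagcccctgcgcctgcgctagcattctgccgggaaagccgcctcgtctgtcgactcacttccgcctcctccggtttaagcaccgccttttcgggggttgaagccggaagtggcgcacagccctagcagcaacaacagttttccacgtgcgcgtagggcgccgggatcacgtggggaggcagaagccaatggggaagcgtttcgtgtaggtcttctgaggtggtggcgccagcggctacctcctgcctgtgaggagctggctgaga
HSPA5, chr9:125241294-125241593, minus strand: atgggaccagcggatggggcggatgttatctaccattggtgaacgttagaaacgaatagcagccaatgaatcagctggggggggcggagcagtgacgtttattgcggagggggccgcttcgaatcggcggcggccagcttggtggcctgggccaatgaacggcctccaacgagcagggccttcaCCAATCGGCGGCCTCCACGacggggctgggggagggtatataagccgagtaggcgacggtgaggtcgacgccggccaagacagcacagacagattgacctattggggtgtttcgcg
HES1, chr3:194135898-194136197, plus strand: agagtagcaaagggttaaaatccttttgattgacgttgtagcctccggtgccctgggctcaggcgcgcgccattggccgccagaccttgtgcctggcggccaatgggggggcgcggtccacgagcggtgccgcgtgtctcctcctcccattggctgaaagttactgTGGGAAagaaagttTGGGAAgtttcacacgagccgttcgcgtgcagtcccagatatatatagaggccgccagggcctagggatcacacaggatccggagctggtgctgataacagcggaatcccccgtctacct
The windows of HERPUD1 and SDF2L1 each held 1 ER stress response element II, a motif found in 0.0541% of the 35116 windows of 300 bases. HSPA5 held 1 ER stress response element, found in 0.0769% of windows, and HES1 held 2 RBPJ cores, found in 24.0%. DNAJB9 had no match to any of the 4 motifs in this window. Of the 26 genes called in either analysis 21 had a window, and 2 of these held an ER stress response element II, 0 an ER stress response element, 0 an unfolded protein response element (0.729% of all windows) and 4 an RBPJ core. The ER motifs were picked after the expression values were seen.

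The list of unfolded protein and amino acid stress genes had 31 measured members, of which 5 were higher and 0 lower, beside 0.0708% and 0.0253% of all genes. The 5 were DNAJB9, HERPUD1, SDF2L1, DNAJC3 and GDF15. Leaving out vehicle array 3 gave 4, with GDF15 not called. The median difference over the members was 0.14, and 0.18 without vehicle array 3, against 0.0020 and 0.010 over all genes. A difference above 0 was seen in 28 of the 31 members, against 10044 of all 19775 genes. Of the 31 members 29 were above the median level of all genes in vehicle arrays. In other lists with all measured members above that level, the share above 0 ran from 50% (G2 and mitosis) to 82.4% (ribosomal proteins). The part of level in these shares was not tested. GSI arrays lay above all vehicle arrays in 13 members, against 4.34% of all genes, and above the 3 other vehicle arrays in 21, against 9.59%. GDF15, a secreted stress cytokine of the TGF-beta family, was at 10.01, 10.05, 9.98 and 10.11 in GSI arrays and at 9.76, 9.66, 9.14 and 9.75 in vehicle arrays. Its rise of 0.46 ± 0.094 (limma adjusted p = 0.034) came to 0.31 without vehicle array 3 (adjusted p = 0.11), and its 2 other probe sets, near 5.5, gave -0.12 each.

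**Figure D2:**
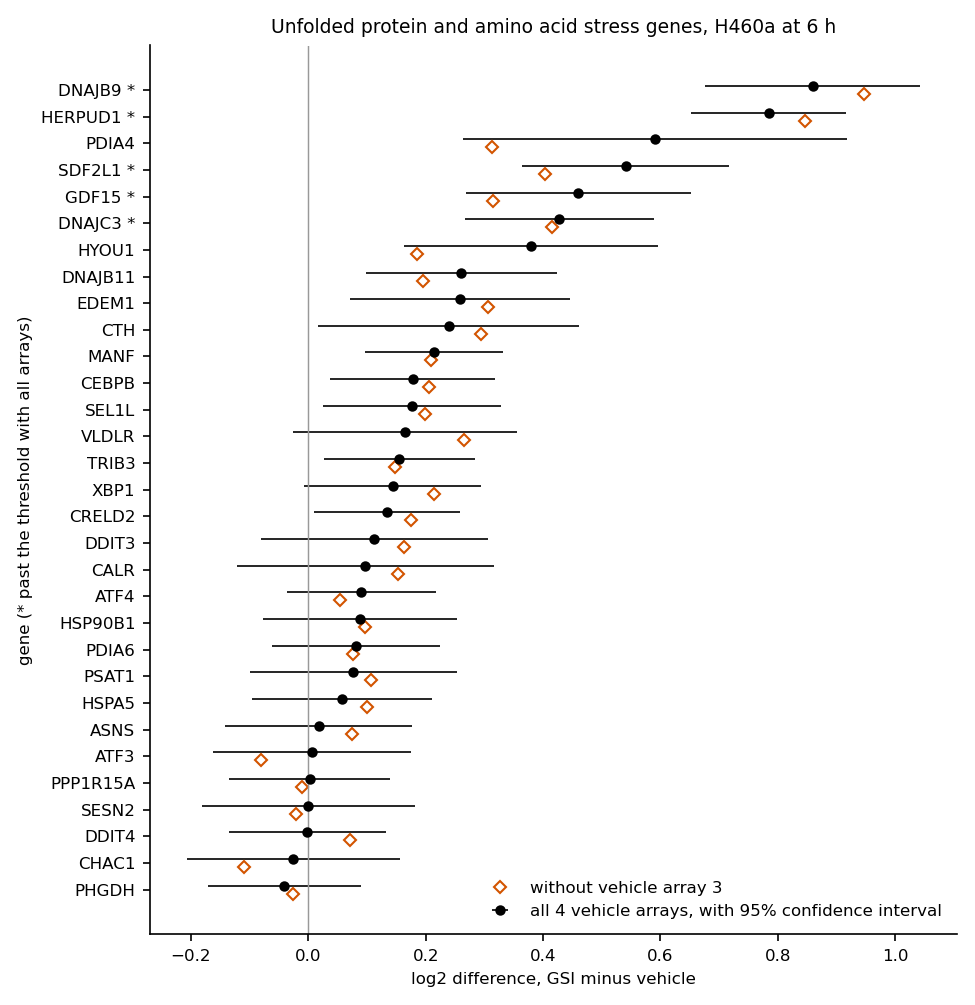
Log2 difference, GSI minus vehicle, in H460a at 6 h for the 31 measured genes on the list of stress from unfolded proteins and amino acids. Black points are the estimates with all arrays with 95% confidence intervals, open diamonds the estimates without vehicle array 3, and asterisks mark genes past the threshold with all arrays. DNAJB9 and HERPUD1 stand at the top, and ASNS, CHAC1 and PHGDH lie near 0.

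Other ER members did not pass the threshold. HYOU1, an ER chaperone, had a difference of 0.38 ± 0.11 with all arrays (limma adjusted p = 0.20) and of 0.19 without vehicle array 3, where that array was at 11.46 and the other vehicle arrays were at 12.18 to 12.27. PDIA4, a disulfide isomerase, had 0.59 with all arrays and 0.31 without vehicle array 3 (adjusted p = 0.20 and 0.45). EDEM1 and SEL1L, of the degradation machinery, had 0.26 and 0.18, and 0.31 and 0.20 without vehicle array 3. The difference for MANF, an ER protein that can be secreted, was 0.21 both ways. HSPA5 had 0.06 ± 0.075 at a level of 14.3 in both groups, and a second probe set, at 9.70 in GSI and 9.42 in vehicle arrays, gave 0.28, or 0.38 without vehicle array 3. When each of 54613 probe sets was tested on its own, that second set was past the threshold without vehicle array 3 only (limma adjusted p = 0.025). EIF2AK3, the ER stress sensor PERK, had 0.39 ± 0.093 (adjusted p = 0.10), and 0.42 without vehicle array 3. XBP1, a transcription factor of the response, had 0.14 and 0.21.

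Several members linked to ATF4, the transcription factor of the amino acid response, did not pass the threshold in either analysis. GDF15 passed it with all arrays. ATF4 itself had a difference of 0.09 with all arrays and 0.05 without vehicle array 3, and DDIT3 of 0.11 and 0.16. TRIB3 had 0.16 and 0.15, with GSI arrays above all vehicle arrays. The second probe set of TRIB3 gave 0.35, or 0.18 without vehicle array 3. Asparagine synthetase ASNS had 0.02 and 0.07, and the glutathione-degrading enzyme CHAC1 -0.03 and -0.11. The serine synthesis enzymes PSAT1 and PHGDH had 0.08 and -0.04 with all arrays, and 0.11 and -0.03 without vehicle array 3. CTH and CEBPB, also not past the threshold, had 0.24 and 0.18 with all arrays, and 0.29 and 0.21 without vehicle array 3. For CEBPB the GSI arrays lay above all vehicle arrays.

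The other 9 rises were of genes outside that list. SLC33A1, which carries acetyl-CoA into the ER, was at 9.18, 9.28, 9.21 and 9.23 in GSI arrays and at 8.78, 8.76, 8.87 and 8.76 in vehicle arrays. It rose by 0.43 ± 0.070 (limma adjusted p = 0.0028) and by 0.46 without vehicle array 3. Its other probe sets gave 0.40, 0.51 and 0.031. ALG2, a mannosyltransferase that builds the N-glycan precursor at the ER, was at 10.93, 10.92, 10.88 and 10.97 in GSI arrays and at 10.50, 10.43, 10.70 and 10.48 in vehicle arrays. It rose by 0.40 ± 0.069 (adjusted p = 0.0066) and by 0.46 without vehicle array 3. Its other probe set, at 6.41 in GSI and 6.35 in vehicle arrays, gave 0.065. VASN, a membrane protein that binds TGF-beta, rose by 0.39, and by 0.34 without vehicle array 3. TRAPPC6A, of a vesicle tethering complex, rose by 0.36 both ways.

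CCNG2, an unconventional cyclin linked to cell cycle arrest, was at 8.54, 8.42, 8.67 and 8.73 in GSI arrays and at 8.10, 7.97, 8.22 and 7.99 in vehicle arrays. The rise was 0.52 ± 0.092 (limma adjusted p = 0.0067), and 0.57 without vehicle array 3. Of its 4 other probe sets, 3 gave 0.12 to 0.39 and the fourth, at 6.65 in GSI and 6.84 in vehicle arrays, gave -0.19. FZD2, a Wnt receptor, rose by 0.35 (adjusted p = 0.030), and by 0.37 without vehicle array 3 (adjusted p = 0.037). Its other probe set, at 7.83 in GSI and 7.79 in vehicle arrays, gave 0.04. ACTL9, an actin-like gene below the median of the arrays, at 5.10 to 5.38 in GSI arrays and 4.79 to 4.98 in vehicle arrays, rose by 0.38 (adjusted p = 0.030) but was not called without vehicle array 3 (adjusted p = 0.086). SLC2A3, a glucose transporter, rose by 0.32 (adjusted p = 0.038) and was not called without vehicle array 3 (adjusted p = 0.16). Its other probe sets gave 0.29 and 0.13. SLC2A3 was the 1 called member of 32 hypoxia and glycolysis genes, beside 0.0961% of all genes.

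INSIG1, which holds the sterol sensing machinery in the ER, was at 10.05, 10.12, 10.13 and 10.23 in GSI arrays and at 9.75, 9.79, 9.72 and 9.69 in vehicle arrays. It rose by 0.39 ± 0.077 (limma adjusted p = 0.023), and the same difference had an adjusted p of 0.056 without vehicle array 3. Its 2 other probe sets gave 0.23 and 0.48. INSIG1 was the 1 called member of 24 cholesterol and fatty acid synthesis genes, and 0 were lower, beside 0.0708% and 0.0253% of all genes. The median of the list was 0.14, and 0.13 without vehicle array 3, against 0.0020 and 0.010 over all genes. A difference above 0 was seen in 23 of the 24 members, against 10044 of all 19775 genes. Of the 24 members 21 were above the median level of all genes in vehicle arrays, and the part of level was not tested. Values for members that did not pass were 0.36 for MVD, 0.34 for MSMO1 and 0.27 for HMGCS1, enzymes of sterol synthesis, and 0.18, 0.37 and 0.36 without vehicle array 3. The desaturase SCD had 0.13 both ways. Without vehicle array 3 the called member was HSD17B7, another sterol enzyme, at 0.27, where vehicle array 3 was at 9.92 and the other vehicle arrays at 9.50 to 9.56.

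**Figure D3:**
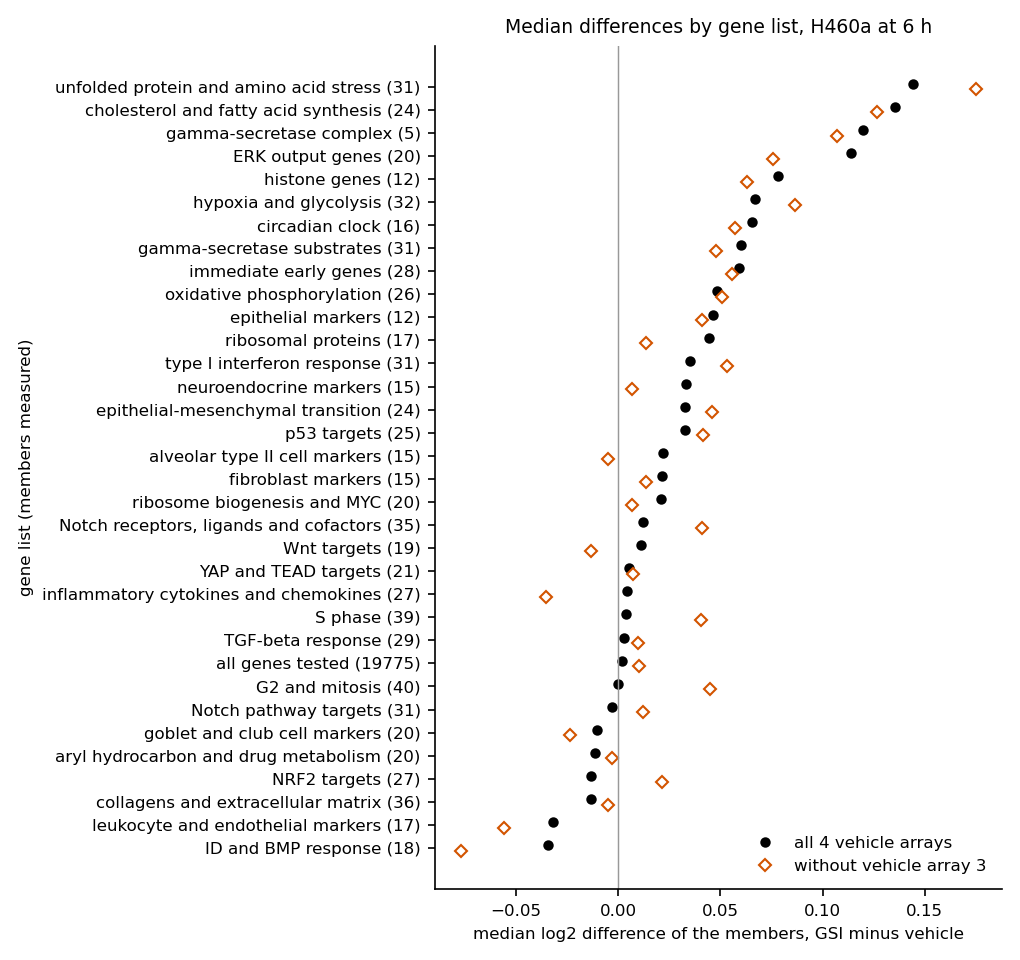
Median log2 difference, GSI minus vehicle, over the measured members of each gene list in H460a at 6 h, ordered by the value with all arrays. Circles use all 4 vehicle arrays, diamonds leave out vehicle array 3, and numbers in brackets are measured members. The lists of unfolded protein and amino acid stress and of cholesterol and fatty acid synthesis have the 2 highest medians, at 0.14 each, and Notch pathway targets lie near 0.

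In the 5 genes that fell, no array of H460a at 6 h was above 7.74. CDH1, which encodes the adhesion protein E-cadherin and is a gamma-secretase substrate, was at 4.48, 4.06, 4.11 and 4.27 in the GSI arrays and at 5.0, 4.71, 4.83 and 4.67 in the vehicle arrays. These levels are below the median of the arrays, and the same probe set was at 9.95 in GSI and 9.69 in vehicle arrays of A549. CDH1 fell by 0.57 (-0.57 ± 0.089, limma adjusted p = 0.0019), with -0.56 without vehicle array 3 (adjusted p = 0.0054). Its other probe set, at 5.11 in GSI and 5.21 in vehicle arrays, gave -0.10. CEACAM6, an adhesion molecule, gave -0.48 (adjusted p = 0.016, and 0.076 without vehicle array 3), and its second probe set gave -0.024. TMEM74B gave -0.43 and the prosaposin-like gene PSAPL1 gave -0.36, both called in each analysis. OR51B2, an olfactory receptor gene, gave -0.41 and was not called without vehicle array 3 (adjusted p = 0.13).

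Of 31 measured Notch targets 0 were called at 6 h in H460a, with or without vehicle array 3. With 0.0961% of all genes called, a count of 0 in a list of this size is no result about the list. At an unadjusted p below 0.05 there were 4 members higher and 4 lower, against 1361 and 840 of all genes. The median of the list was -0.0029, and 0.012 without vehicle array 3. HES1, a repressor induced by Notch, was at 6.45, 6.67, 5.97 and 6.29 in the GSI arrays and at 6.83, 6.60, 6.47 and 6.87 in the vehicle arrays. The groups overlapped, since GSI array 2 lay above vehicle arrays 2 and 3. The difference was -0.35 ± 0.13 (95% confidence interval -0.61 to -0.086 before adjustment, limma adjusted p = 0.32), and -0.42 without vehicle array 3 (adjusted p = 0.37). An exact two-sided permutation test of HES1 over the 70 arrangements of the 8 arrays gave p = 0.114, where the smallest possible p is 0.0286, and p = 0.0857 over 35 arrangements without vehicle array 3. Its 2 other probe sets gave -0.063 and -0.32.

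The other named Notch targets had differences of both signs. HEY1, a related repressor, was at 7.84, 7.99, 7.94 and 8.0 in GSI arrays and at 8.13, 8.05, 8.47 and 8.11 in vehicle arrays. Its GSI arrays lay below all vehicle arrays, with a difference of -0.25 ± 0.078 (limma adjusted p = 0.26) that came to -0.15 without vehicle array 3. HES4 had 0.14 with all arrays and -0.03 without vehicle array 3, which was at 7.87 against 8.46 to 8.67 in the other vehicle arrays. NRARP, a feedback inhibitor of Notch, had -0.01 with all arrays and 0.03 without vehicle array 3, HEY2 had -0.16 and -0.13, and HEYL had 0.04 and 0.0043. For MYC the values were -0.01 and -0.02, and for CCND1, cyclin D1, 0.06 and 0.02. The highest difference of the list was that of NFKB2, a subunit of NF-kappaB named after its values were seen, which was at 9.84, 10.06, 9.88 and 9.84 in GSI arrays and at 9.63, 9.59, 8.63 and 9.46 in vehicle arrays. The groups did not overlap, vehicle array 3 was the lowest, and the difference of 0.58 (limma adjusted p = 0.093) came to 0.35 without it (adjusted p = 0.25).

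Of 35 measured receptors, ligands and cofactors 0 were called, beside 0.0961% of all genes. NOTCH3, a Notch receptor and itself a target of the pathway, was at 11.89 to 12.07 in GSI arrays and at 12.14 to 12.42 in vehicle arrays. The groups did not overlap and the difference was -0.24 ± 0.079 (limma adjusted p = 0.29), or -0.18 without vehicle array 3. Its other probe set, at 8.30 in GSI and 8.17 in vehicle arrays, gave 0.14, or -0.16 without vehicle array 3. NOTCH1 had -0.11 with all arrays and -0.07 without vehicle array 3, and NOTCH2 had -0.04 both ways. The ligand JAG1 had 0.20 and 0.17, and JAG2 -0.05 and -0.06. RBPJ had -0.09 with all arrays and 0.05 without vehicle array 3, which was at 11.04 against 10.47 to 10.49 in the other vehicle arrays. Of 5 measured subunits of gamma-secretase 0 were called, beside 0.0961% of all genes. A count of 0 in so short a list is no result about the complex. The difference for PSENEN was 0.62 with all arrays and 0.30 without vehicle array 3, which was at 7.77 against 8.63 to 9.36 in the other vehicle arrays. APH1A had 0.19 with all arrays and 0.12 without vehicle array 3, and APH1B -0.07 and -0.14. NCSTN had 0.12 and 0.11, and PSEN2 0.08 both ways. Of 29 TGF-beta response genes, 28 immediate early genes and 20 ERK output genes, 0 were called, again beside 0.0961% of all genes. At an unadjusted p below 0.05 there were 6, 6 and 4 members higher. Those lower were 1, 0 and 0, and over all 19775 genes 1361 were higher and 840 lower. The ERK output list had a median of 0.11, and 0.076 without vehicle array 3, against 0.0020 and 0.010 over all genes. Of its 20 members 16 were above 0, against 10044 of all 19775 genes, and 18 were above the median level in vehicle arrays.

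A further 7 genes were called when vehicle array 3 was left out. HSPA13, an HSP70-type protein of microsomes, was at 10.51, 10.43, 10.53 and 10.74 in GSI arrays and at 10.03, 10.04, 10.34 and 10.03 in vehicle arrays, with array 3 the highest of these. Its difference was 0.44 with all arrays (limma adjusted p = 0.061) and 0.52 without array 3 (adjusted p = 0.022). DERL2, of the ER degradation machinery, had 0.25 with all arrays and 0.33 without array 3, and MIS12, of the kinetochore, had 0.32 and 0.36. ORAI3, a calcium channel subunit, had 0.22 and 0.36, PRSS16, a protease, 0.39 and 0.46, and HSD17B7 0.17 and 0.27. DGAT2, an enzyme of triglyceride synthesis, was the 1 fall among them, at -0.35 with all arrays and -0.43 without array 3.

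**Figure D4:**
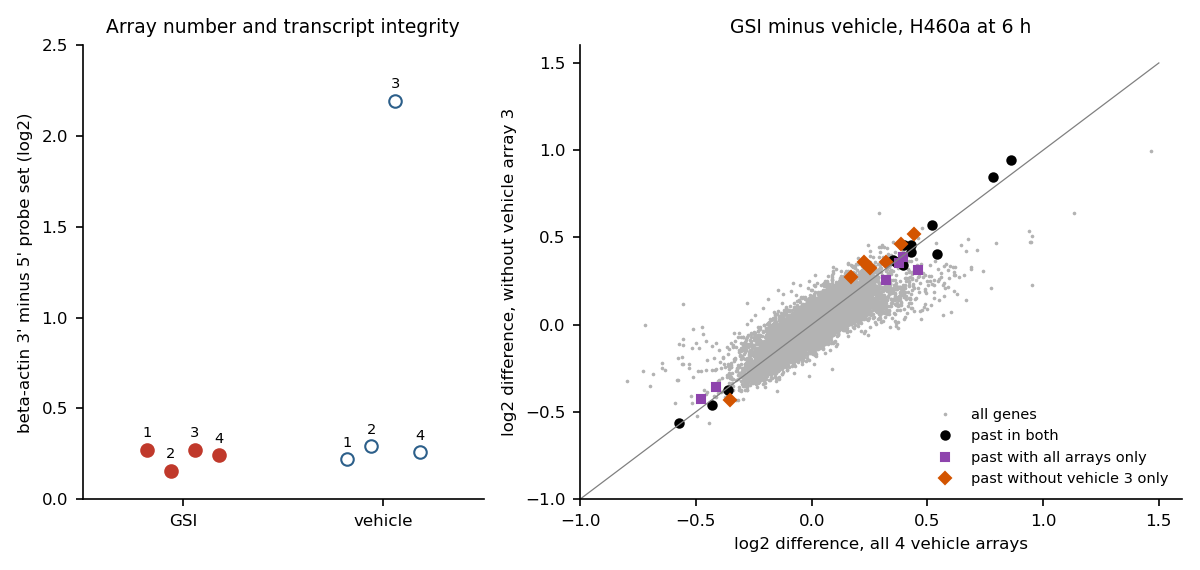
Left, the beta-actin 3′ minus 5′ difference in log2 units for each array of H460a at 6 h, numbered by replicate, with GSI left of vehicle. Right, the log2 difference with all arrays against that without vehicle array 3 for all genes, with called genes marked. Vehicle array 3 is at 2.19, and the genes called in both analyses, 13 in number, lie close to the line of equal values.

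The effect at 6 h was set against the effect in the same line at 24 h, which addresses whether the response lasts. A difference of the 2 effects past the threshold was found for 2 genes (0.0101% of those tested), HERPUD1 and DNAJB9. HERPUD1 had 0.78 at 6 h and 0.03 at 24 h, a difference of 0.76 ± 0.092 (limma adjusted p = 3.6e-05). DNAJB9 had 0.86 at 6 h and 0.04 at 24 h, a difference of 0.82 ± 0.13 (adjusted p = 0.0028). The call was lost for HERPUD1 with the mean of its probe sets (0.30, adjusted p = 0.28) and for DNAJB9 with its most variable probe set (1.13, adjusted p = 0.090). Without vehicle array 3 there were 4 genes (0.0202%), 3 above 0 (0.0152%) and 1 below (0.00506%), with HSPA13 at 0.74 and PXDN, a peroxidase of the extracellular matrix, at -0.94 added. Of the 19 genes called at 6 h, 19 had a larger size at 6 h than at 24 h and 0 were called at 24 h, where 1 gene was called in all (0.00506%, and 1145 at an unadjusted p below 0.05). The 14 genes that rose at 6 h had 24 h effects of -0.058 to 0.20, with a median of 0.022. These 19 genes were chosen on the 6 h effect, so the larger size at 6 h is a description and no test.

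**Figure D5:**
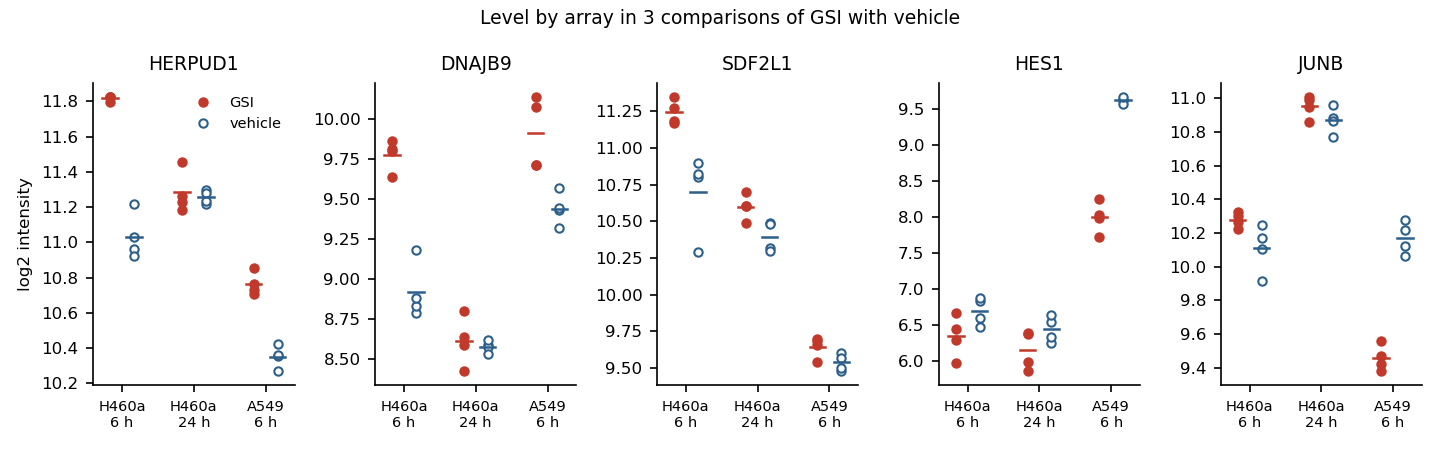
Log2 intensity by array for 5 genes in H460a at 6 h, H460a at 24 h and A549 at 6 h, with GSI arrays (filled) left of vehicle arrays (open) and bars at the group means. HERPUD1 and DNAJB9 are higher with GSI in both lines at 6 h, and HES1 and JUNB are lower with GSI in A549 at 6 h.

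The effect in H460a was also set against that in A549 at 6 h, which addresses whether the 2 lines respond alike. A difference of effects was called for 24 genes (0.121%), of which 7 were above 0 (0.0354%) and 17 below (0.086%). Without vehicle array 3 there were 21 (0.106%), of which 8 were above 0 (0.0405%) and 13 below (0.0657%). With quantile normalization over all arrays there were 40, 23 above 0 and 17 below, and within each line 34, 19 above and 15 below. Mean intensity was 496 to 589 in the A549 GSI arrays and 468 to 496 in the A549 vehicle arrays, and its part in this count was not tested beyond these scalings. HES1 had -0.35 in H460a and -1.63 in A549, a difference of 1.29 ± 0.18 (limma adjusted p = 3.0e-04) that came to 1.21 without vehicle array 3, and vehicle levels of 6.69 in H460a and 9.63 in A549. LBH, a regulator of transcription, had 0.23 in H460a and -0.81 in A549, and JUNB, a subunit of AP-1, had 0.17 in H460a and -0.71 in A549. The differences were 1.04 and 0.88 (adjusted p = 1.5e-04 and 2.1e-06). Without vehicle array 3 the H460a effects were 0.15 for LBH and 0.11 for JUNB, and the differences 0.96 and 0.82 (adjusted p = 6.2e-04 and 3.3e-06). SNAI1, a repressor of CDH1, had -0.02 in H460a and -0.62 in A549. The difference of these effects was 0.59 (limma adjusted p = 0.023, and 0.058 without vehicle array 3). ANGPTL4, a secreted inhibitor of lipoprotein lipase, had -0.02 in H460a and -0.58 in A549, a difference of 0.56.

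Of the differences below 0, ID2, an inhibitor of helix-loop-helix factors, had -0.09 in H460a and 0.62 in A549, a difference of -0.71 ± 0.12 (limma adjusted p = 0.0039). GPAT3, an enzyme of glycerolipid synthesis, had -0.07 in H460a and 0.75 in A549. CDH1 had -0.57 in H460a and 0.27 in A549, where it was called in the opposite direction. PLD5 had -0.20 in H460a and 0.72 in A549, and the nuclear receptor NR5A2 had -0.45 and 0.42. The differences were -0.92 and -0.87, and in H460a both genes were below the median of the arrays. In H460a PLD5 was at 3.95 to 4.08 in GSI arrays and 4.11 to 4.33 in vehicle arrays. NR5A2 was at 4.63 to 5.35 and 4.97 to 5.53.

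HERPUD1 and DNAJB9 rose in both lines. HERPUD1 had 0.78 in H460a and 0.41 ± 0.065 in A549 (limma adjusted p = 4.3e-04), and DNAJB9 had 0.86 in H460a and 0.47 ± 0.090 in A549 (adjusted p = 0.0027). The difference of effects for HERPUD1 was 0.37 ± 0.092 (adjusted p = 0.080), and 0.43 without vehicle array 3 (adjusted p = 0.020). For DNAJB9 it was 0.39 ± 0.13 (adjusted p = 0.14, and 0.17 without vehicle array 3). In A549 GSI arrays 1 to 4 mean intensity was 496, 531, 589 and 583, and DNAJB9 was at 9.71, 9.71, 10.14 and 10.07. HERPUD1 was at 10.73, 10.71, 10.77 and 10.86 in these arrays. A549 vehicle arrays had DNAJB9 at 9.32 to 9.57 and HERPUD1 at 10.27 to 10.43. The part of mean intensity in the A549 effects was not tested. Of the 14 genes higher in H460a, 9 were also higher in A549, 64.3% of the H460a genes and 0.391% of the 2301 A549 genes, where 11.6% of all genes were called higher. Of the 5 lower in H460a, 1 was lower in A549, PSAPL1, where 1.51% of all genes were called lower. The 2 comparisons share no arrays, but they were fitted in the same model and share each gene's estimate of spread. The SE of a gene was therefore the same in both lines, as for HERPUD1 (0.065) and DNAJB9 (0.090). A gene with a small spread is more readily called in both, so the calls in the 2 lines are not independent. The part of this in the overlap was not tested.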

How the data were processed

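The authors made the deposited values with RMA, per the submitters' processing notes, giving 1 intensity per probe set (54675 in all) and Affymetrix array. The version of RMA was not stated in the sources used. The deposited intensities look linear by their range, and log2 was taken here without other scaling. The sample descriptions mention embryos, unlike every other label, and this was ignored.

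Control probe sets (62), those naming more than 1 gene (1801) and those naming none (11721) were left out. The remaining 41091 cover 19775 genes. Where a gene had several probe sets (10523 genes), the one with the highest mean over 32 arrays was used. Gene ids of 41043 probe sets matched the reference table.

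Means of 8 groups were fitted with limma 3.58.1 in R 4.3.3 (lmFit, eBayes) over all 32 arrays, with 31.9 degrees of freedom, and again without vehicle array 3, with 30.7. The steps were tested on simulated data. Contrasts were GSI against vehicle and the differences of that effect from the effect at 24 h and from that in A549. P-values were adjusted by Benjamini-Hochberg over all genes. Python 3.11.15, pandas 2.3.3 and matplotlib 3.10.9 made the figures.

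The comparison and the 33 gene lists (799 genes, 722 of them measured) were chosen with earlier results of these data known, so no list was tested as a set. The lists that the report does not describe had no called member beyond CDH1 and the genes named. Genes were named by rule: up to 12 of the largest rises and falls with arrays that do not overlap, up to 8 each way without vehicle array 3, a fixed set of Notch, gamma-secretase and TGF-beta genes, up to 4 called members of each list, and up to 5 each way of each difference of effects. Other genes given as examples were picked after their values were seen. Alternatives were other samples in the model, scalings, probe set rules, a filter on dim genes, array weights, covariates, a replicate block and leaving out arrays.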

Additional observations from a re-analysis of the deposited data

Results flagged for a closer look

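Levels of the named genes in the 4 GSI and the 4 vehicle arrays of H460a at 6 h were checked for single arrays far from the others, over 212 groups of 4. In 21 groups 1 array stood apart by Dixon's criterion, where chance gives about 1 in 20. Some genes were named because they were called only without vehicle array 3, and others after their values were seen. The chance rate is therefore no test for these genes. Of the 21 groups, 14 were in vehicle arrays, 13 of them array 3, and 7 in GSI arrays. Vehicle array 3 was also apart in the 3′ minus 5′ differences of the control probe sets, at 2.19 for beta-actin and 0.27 for GAPDH. In vehicle array 3 the log2 level stood below the other vehicle arrays for SDF2L1 (10.29), GDF15 (9.14), VASN (8.43), ID1 (10.97), HYOU1 (11.46) and FASN (10.67). It stood above them for HSPA13 (10.34), NRARP (8.37), RBPJ (11.04), HSD17B7 (9.92), DERL2 (10.82), ORAI3 (8.77) and DDIT4 (13.74). Vehicle array 1 stood above the others for MANF, at 12.16.

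Among GSI arrays, array 1 was low for HERPUD1, at 11.79, array 2 low for DGAT2 (7.08) and high for DNAJB11 (12.13), and array 3 low for JAG2 (8.51). Array 4 was low for MYC (12.46) and PMEPA1 (8.25) and high for MIS12 (10.48).

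The effect of GSI in H460a at 6 h differed from that at 24 h, by limma's test of the difference, for DNAJB9 (0.82) and HERPUD1 (0.76). It differed from the effect in A549 at 6 h for HES1 (1.29), LBH (1.04), JUNB (0.88), SNAI1 (0.59), ANGPTL4 (0.56), PLD5 (-0.92), NR5A2 (-0.87), CDH1 (-0.84), GPAT3 (-0.82) and ID2 (-0.71).

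Among probe sets with several gene symbols, which no gene test used, 3 were past the threshold when each of 54613 probe sets was tested by limma. The set of MIR6751 and SYVN1, an ER ubiquitin ligase gene, had a difference of 0.41, that of LINC00673 and LINC00511 of -0.54, and that of TMED7-TICAM2 and TICAM2 of 0.53. Without vehicle array 3 these came to 0.38, -0.50 and 0.60, and the set of LINC00673 and LINC00511 was no longer past the threshold (limma adjusted p = 0.079).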

How the results depend on the processing

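Of the 19 called genes, HERPUD1 and DNAJB9 were past the threshold under each of 17 other settings and without each of 8 arrays, and 7 genes were called without each of the 8 arrays. The count of 19 came to 2 with the comparison's arrays or the H460a arrays alone, or with a difference of at least 0.58 required. The mean of probe sets gave 11, and array weights 110. Quantile normalization gave 20 over all arrays and 21 within each line, each with 15 of the 19 genes kept. Centring arrays on the median gave 20, with 18 kept. The count also moved when 1 array was left out. It ranged from 9 without GSI array 4 to 46 without vehicle array 1. Chosen after seeing the data, leaving out vehicle arrays 3 and 4 gave 5. DNAJC3 reversed, to -0.0048, with its most variable probe set. The count of 2 for the difference from 24 h came to 4 under both quantile normalizations, with that within lines without vehicle array 3, with the beta-actin covariate and without vehicle arrays 3 and 4, to 6 with array weights, and to 1 with the mean of probe sets or the most variable probe set. Leaving out 1 array gave 2 to 5. The count of 24 for the difference from A549 came to 11 with the comparison's arrays alone, 40 with quantile normalization over all arrays, 217 without genes under the median level, 129 with trend and robust, 81 with array weights, and 9 without vehicle array 3 and A549 GSI arrays 3 and 4. Leaving out 1 array gave 15 to 844, the highest without A549 GSI array 1, 180 without A549 GSI array 2, and 15 without A549 GSI array 3 or H460a GSI array 4. Without vehicle array 3 quantile normalization within lines gave 27, 19 above 0 and 8 below. The cause of these shifts was not tested.

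The replicate numbers did not pair the arrays, with correlations of same-numbered arrays of -0.13 to 0.13 and 1 of 4 above 0.1. With the replicate block the counts were 18, 2 and 20, and with the block and vehicle array 3 left out 9, 4 and 20. Of the GSI arrays, 2 correlated best with their own number. Without image files, signal over background could not be set, which limits genes at low levels such as CDH1.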

Other observations

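Vehicle array 4 leaned the way of vehicle array 3, in genes picked after their values were seen. In 171 genes vehicle array 3 lay over 1 below the GSI mean, and in 155 of them vehicle array 4 was below the mean of vehicle arrays 1 and 2, with a median difference of -0.16 on the log2 scale. The same genes had a median of 0.087 for vehicle array 1 minus vehicle array 2. In 55 genes vehicle array 3 lay over 1 above the GSI mean, and vehicle array 4 was above the other 2 in 40. STT3A, a subunit of the enzyme that attaches N-glycans, was at 10.51, 11.11, 10.63 and 11.32 in GSI arrays and at 10.75, 10.44, 8.27 and 9.56 in vehicle arrays. EIF5A, a translation factor, was at 13.95, 14.16, 14.02 and 14.19 in GSI arrays and at 14.08, 13.94, 10.96 and 13.53 in vehicle arrays. The beta-actin 3′ minus 5′ difference did not set vehicle array 4 apart. HERPUD1 and DNAJB9 had differences of 0.88 and 0.97 without vehicle arrays 3 and 4.

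DERL2 and MIS12, both called without vehicle array 3, have RefSeq promoter windows on chromosome 17 of build GRCh38.p14 that overlap by 295 bases and face opposite ways. The window of DERL2 runs from 5486129 to 5486428 on the minus strand, and that of MIS12 from 5486124 to 5486423 on the plus strand. The link between the shared window and the 2 differences was not tested.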
